A study of Mus musculus with 3 samples.

Results

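The genes described here are 10 components and targets of bone morphogenetic protein (BMP) signaling: the ligand genes Bmp2 and Bmp4, the receptor gene Bmpr1a, the antagonist gene Fst, the inhibitory genes Smad6 and Smad7, and the target genes Id1, Id2, Id3 and Msx1. They were chosen by name as listed genes, and all 10 were measured. They were followed in 2 lineages of mouse embryonic stem cell aggregates, the visceral endoderm (VE), an extraembryonic layer that covers the early embryo, and the epiblast (Epi), which gives rise to the body. A cell counted as VE when its transcripts of the VE markers Gata6, Sox17, Dab2 and Cubn together exceeded those of the Epi markers Pou5f1, Sox2, Nanog and Fgf4, and otherwise as Epi.

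BMP ligands bind paired type I and type II serine/threonine kinase receptors, which phosphorylate SMAD1, SMAD5 and SMAD9. These enter the nucleus with SMAD4 and activate target genes, among them the Id genes, whose products block basic helix-loop-helix factors, and Smad6 and Smad7, whose products dampen the pathway. In the mouse embryo at implantation the VE is a source of BMP2, the extraembryonic ectoderm is a source of BMP4, and BMP signaling is thought to limit where the anterior visceral endoderm (AVE), a signaling center within the VE, arises.

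The 3 libraries were made from E14tg2a embryonic stem cells that carry a doxycycline-inducible GATA4 transgene (iGATA cells, clone C6 for BELAs and VE cysts). Bilayered embryo-like aggregates (BELAs) received 0.5 µg/ml doxycycline in 2i and LIF for 8 h and N2B27 without it for 16 h, and were collected 3 days after seeding in N2B27. VE cysts received doxycycline for the same 8 h and for 16 h more in N2B27 to which FGF4 (10 ng/ml) and heparin (1 µg/ml) had been added, and spent the last 3 days in that medium without doxycycline. Epi cysts grew from uninduced iGATA cells in matrigel, for 1 day in 2i and LIF and 3 days in N2B27. Medium, matrix, induction and the presence of the other lineage differed together between the aggregates and cannot be told apart, and each condition is a single library, so that differences have no replicate check and no p-value is given.

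The cell filter (a minimum of 4000 detected genes, a maximum of 10% mitochondrial transcripts) kept 1410 BELA cells, 657 Epi cyst cells and 625 VE cyst cells. BELAs held 542 VE and 868 Epi cells, VE cysts 577 VE and 48 Epi cells, and Epi cysts 656 Epi cells and 1 VE cell, which was not used. The Epi group of VE cysts includes 4 cells tied between the marker sums, and it is small. Median depth was 90251 and 56914 unique molecular identifiers (UMIs, each standing for 1 captured transcript) in VE cells of BELAs and VE cysts, and 78973, 60131 and 87189 in the Epi cells of BELAs, those of Epi cysts and those of VE cysts. No barcode of a passing cell was shared between libraries. Other VE genes followed the lineage rule: 14 VE genes that it does not use stood in Epi cells of BELAs at a median of 1.23% of their level in VE cells, from 0.526% for Ttr to 14.0% for Apoe. A list of 12 presumed Epi genes did not separate the lineages, with a median of 106% in VE cells. The 4 Epi markers of the rule stood in VE cells of BELAs at 3.18% to 7.32% of their level in Epi cells, a range that the rule itself holds low.

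Levels are given in CPM, the UMIs of a gene per 1000000 UMIs of all cells of a group, with exact 95% Poisson intervals. Shares are the percentage of cells with at least 1 UMI after each cell was thinned to 40000 UMIs, which kept 514, 473, 801, 592 and 44 cells in the order VE of BELAs, VE of VE cysts, Epi of BELAs, Epi of Epi cysts and Epi of VE cysts. All intervals cover counting error only. A gene was counted as higher or lower when it was past 2-fold with 5 CPM added to both levels. Plain ratios, without addition, are given with exact intervals.

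Because Id genes carry much of what follows, the sequence before their start sites was read for letters that SMAD1 and SMAD5 complexes are known to bind, GGCGCC, and for the SMAD box GTCT. The search covered both strands of the 250 bases before the RefSeq start on GRCm38, and 6 of the 10 genes had a window that could be used (Id2, Id3, Smad6, Msx1, Bmpr1a and Bmp4). The 24-base stretches around the matches in Id2 and Id3, which differed most between VE and Epi cells of BELAs among the genes with a window, are shown 5′ to 3′ on the gene's strand with the match in capitals (AGAC is GTCT on the other strand).
Id2, chr12:25096309-25096332, minus strand: ggccccctgGGCGCCcagcgcaca
Id2, chr12:25096102-25096125, minus strand: tgcacataaaAGACgccccgcccg
Id3, chr4:136143646-136143669, plus strand: cctcggcgtcAGACcagcctaagg
Id3, chr4:136143744-136143767, plus strand: acccttggcgGTCTgttttgaata
GGCGCC occurred in 2 of the 6 windows (Id2 and Bmpr1a) and in 9.59% of 32851 windows of the same length. The box occurred in 4 of the 6 windows (Id2, Id3, Bmp4 and Smad6) and in 82.9% of all. Both motifs in this order with 5 bases between them were in none of the 6 and in 0.0700% of all. The GGCGCC of Id2 lay 231 to 226 bases before the RefSeq start and in no annotated untranslated region of the gene. The other 3 matches lay within annotated untranslated regions of GENCODE transcripts. A match of letters does not show that a factor binds there.

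The ligand genes differed in lineage within BELAs, with Bmp2 higher in VE cells and Bmp4 in Epi cells. Bmp2 stood at 17.2 CPM (16.1 to 18.3) in VE cells of BELAs and 12.2 CPM (11.1 to 13.4) in VE cells of VE cysts. Among the Epi groups it was at 0.430 CPM in BELAs, at 0.783 CPM in Epi cysts (14 of 32 UMIs in 1 cell) and, on 2 UMIs, at 0.464 CPM in VE cysts. The VE groups thus stood far above the Epi groups, with 34.6% and 30.0% of cells positive against 0.749% to 2.27%. Within BELAs the level of Bmp2 was 39.98 times (28.0 to 59.2) higher in VE than in Epi cells. Its level in Epi cells of BELAs was 2.50% of that in VE cells, within the range of the 14 VE genes above, and is not read as expression.

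Bmp4 stood at 8.99 CPM (8.31 to 9.71) in Epi cells of BELAs. It was at 1.61 CPM (1.25 to 2.05) in Epi cyst cells, 2.09 CPM (0.956 to 3.97) in those of VE cysts, 2.99 CPM (2.55 to 3.49) in VE cells of BELAs and 0.986 CPM (0.687 to 1.37) in VE cells of VE cysts. The Epi cells of BELAs stood above all other groups, and the Epi cells of VE cysts could not be ordered against Epi cysts or either VE group by their intervals. Positive cells made up 19.5% of Epi cells in BELAs, 5.91% in Epi cysts, 8.75% of VE cells in BELAs and 2.75% in VE cysts. The level in VE cells of BELAs was 33.3% of that in Epi cells.

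The transcripts of Bmp4 were gathered in few cells. Among Epi cells of BELAs, the tenth of cells with most Bmp4 held 74.1% of its UMIs, the highest cell had 27, and the variance was 4.97 times the mean, where a value of 1 is that of counting noise. Only 6 of 801 cells had at least 5 Bmp4 UMIs, and they held 22.8% of all. Without these 6 cells the level was 7.14 CPM, and the ratio over Epi cysts, at the same thinned depth, went from 5.17 (3.74 to 7.33) to 4.02 (2.89 to 5.74). In the same 6 cells Hand1, a target gene in the wider pathway list, was at 283 CPM against 2.91 CPM in the 645 cells with no Bmp4 UMI. Before thinning, a single Epi cell of BELAs held 114 of the 446 Hand1 UMIs. No Id gene was higher in the 6 cells beyond counting error. Id1 was at 16.7 CPM (4.54 to 42.7) against 19.5 CPM, on 4 UMIs. Id2 was at 0 CPM, which allows up to 15.4 CPM, against 11.8 CPM. These 2 genes thus could not be told from the cells with no Bmp4 UMI. Id3 was at 12.5 CPM (2.58 to 36.5) against 75.5 CPM. Smad7 was at 129 against 38.4 CPM. Zfp42 was at 446 against 20.4 CPM, Nanog at 171 against 28.3 CPM and Dnmt3b at 229 against 938 CPM. Zfp42 and Nanog are genes of the naive pluripotent state and Dnmt3b rises as cells leave it. These 6 cells, and the genes named for them, were chosen after their values were seen. In them the VE markers Sox17 and Cubn were at 0 CPM, which allows up to 15.4 CPM, and Gata6 was at 4.17 CPM on 1 UMI. The lineage rule itself holds these markers low in Epi cells, so the values do not check the lineage of the 6 cells.

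Bmpr1a, the gene of a type I receptor for both ligands, varied least of the genes over 10 CPM. Its level was 28.9 CPM (27.5 to 30.4) in VE and 28.9 CPM (27.7 to 30.2) in Epi cells of BELAs, a ratio of 1.00 (0.936 to 1.07). It was 35.3 CPM (33.5 to 37.1) in Epi cysts, 42.9 CPM (40.8 to 45.2) in VE cells of VE cysts and 43.0 CPM (37.0 to 49.6) in Epi cells of VE cysts. The lineages thus did not differ beyond counting error within VE cysts or within BELAs, and the BELA level was the lower one. From 66.7% to 86.4% of cells were positive, and the variance was 0.911 to 1.36 times the mean, close to counting noise in all 5 groups. No other member correlated with Bmpr1a above 0.15 in a group of over 44 cells.

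Fst encodes follistatin, a secreted protein that binds activins and some BMPs, and among the 10 genes it had the largest ratio between Epi cysts and Epi cells of BELAs. Epi cells of Epi cysts had 149 CPM (145 to 153) with 82.4% of cells positive, and Epi cells of BELAs had 8.86 CPM (8.19 to 9.58) with 20.7%. The 48 Epi cells of VE cysts had 35.1 CPM (29.7 to 41.1). VE cells of VE cysts had 53.0 CPM (50.6 to 55.4) with 47.8% positive, and VE cells of BELAs had 13.0 CPM (12.1 to 14.0) with 11.7%. In both lineages BELAs were thus lower than the cysts, by 16.8-fold (15.5 to 18.3) in Epi and 4.08-fold (3.74 to 4.45) in VE cells. In VE cells of BELAs the tenth of cells with most Fst held 96.7% of its UMIs, so that most of these cells had none.

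**Figure D1:**
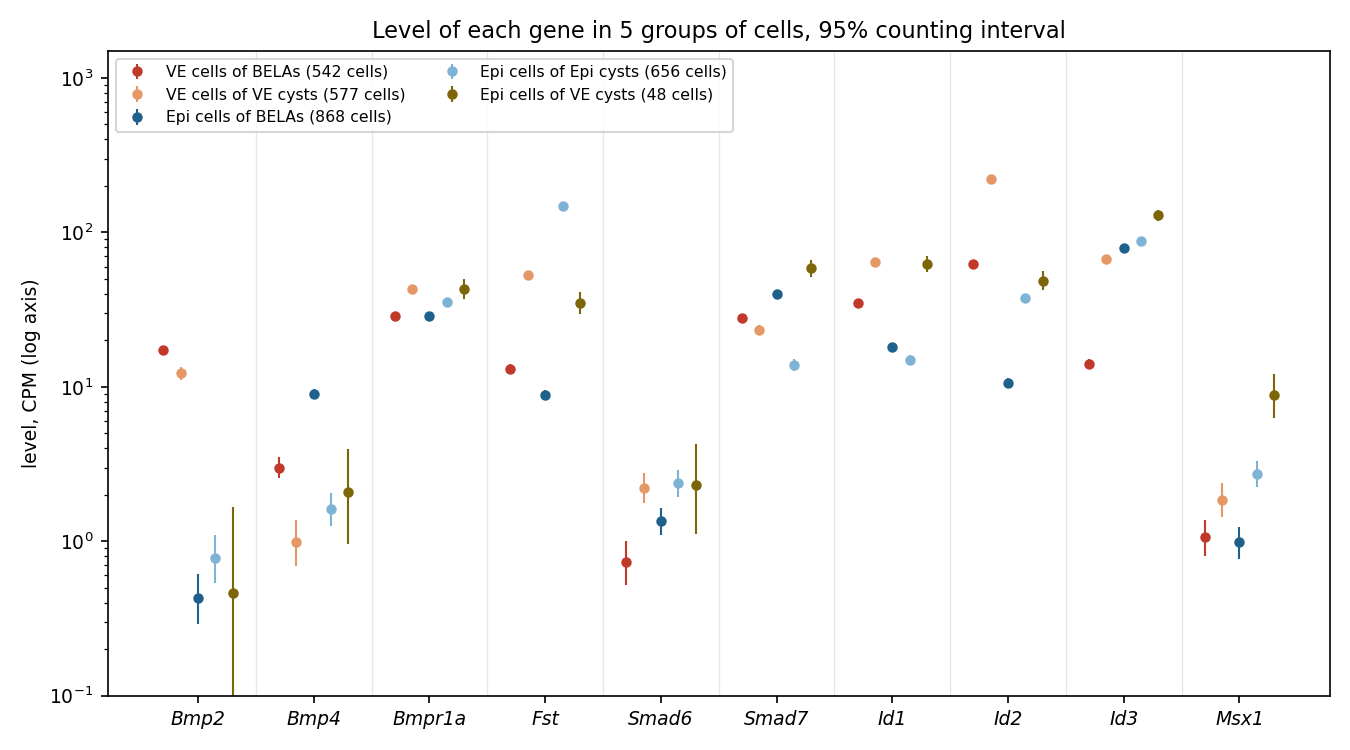
Level of the 10 genes (CPM, log axis) in the 5 groups of cells; points are levels over all cells of a group and bars are exact 95% Poisson intervals, which cover counting error only. Bmp2 separates VE cells (12.2 and 17.2 CPM) from all Epi groups (below 1 CPM), Bmpr1a stays between 28.9 and 43.0 CPM, and Id3 is lowest in VE cells of BELAs at 14.1 CPM.

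Smad7 and Smad6 encode inhibitory SMADs, SMAD7 acting on both the BMP and the activin and Nodal branches and SMAD6 mainly on the BMP branch. Smad7 was at 39.6 CPM (38.2 to 41.1) in Epi cells of BELAs, with 67.4% of cells positive, and at 13.8 CPM (12.7 to 15.03) in those of Epi cysts, with 35.1%. It reached 58.5 CPM (51.5 to 66.2) in Epi cells of VE cysts. VE cells lay between, with 27.9 CPM (26.5 to 29.3) in BELAs and 23.3 CPM (21.8 to 25.0) in VE cysts. Epi cells of BELAs were thus 2.86 times (2.61 to 3.14) above Epi cysts, and no 2 groups had overlapping intervals. Smad6 was scarce throughout, from 0.734 CPM (0.524 to 0.999) in VE cells of BELAs to 2.37 CPM (1.92 to 2.90) in Epi cysts. It was at 2.23 CPM in VE cells of VE cysts, 1.35 CPM in Epi cells of BELAs and 2.32 CPM (1.11 to 4.27) in Epi cells of VE cysts, and 2.53% to 11.4% of cells were positive. In both lineages the BELA level of Smad6 was below that of the cysts, by 3.03-fold (2.05 to 4.56) in VE and 1.76-fold (1.32 to 2.36) in Epi cells on the plain ratio, on 40 to 97 UMIs a group.

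The 3 Id genes did not share one order of groups. Id1 was at 35.1 CPM (33.5 to 36.7) in VE cells of BELAs, 64.0 CPM (61.4 to 66.7) in VE cells of VE cysts, 18.2 CPM (17.2 to 19.2) in Epi cells of BELAs, 14.9 CPM (13.8 to 16.2) in Epi cysts and 62.2 CPM (55.0 to 70.1) in Epi cells of VE cysts. VE and Epi cells of VE cysts were thus alike in level within counting error, but 1 Epi cell held 70 of the 268 Id1 UMIs. Without it the Epi level was 46.6 CPM, below that of the VE cells. After thinning, 43.2% of these Epi cells and 64.9% of the VE cells were positive. Id2 was highest in VE cells, at 62.2 CPM (60.2 to 64.4) in BELAs and 221 CPM (216 to 226) in VE cysts, where 94.9% of cells were positive. Its Epi levels were 10.6 CPM (9.86 to 11.4) in BELAs, 37.8 CPM (35.9 to 39.7) for Epi cysts and 48.8 CPM (42.4 to 55.8) in VE cysts. BELAs were the lowest group for Id2 in each lineage.

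Id3 had another pattern. It stood at 79.3 CPM (77.2 to 81.4) in Epi cells of BELAs, 88.3 CPM (85.4 to 91.2) in Epi cysts and 129 CPM (118 to 140) in Epi cells of VE cysts. VE cyst VE cells were at 67.7 CPM (65.0 to 70.4) and BELA VE cells at 14.1 CPM (13.1 to 15.1). Positive cells made up 61.3% to 75.0% of every group but the VE cells of BELAs, where they made up 19.3% (15.9 to 22.9). The VE cells of BELAs thus stood apart from the 4 other groups. Within BELAs, Id2 was 5.87-fold (5.43 to 6.36) higher and Id3 5.64-fold (5.23 to 6.09) lower in VE than in Epi cells.

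Msx1, a homeobox gene induced by BMP, was low, at 1.06 CPM (0.808 to 1.38) in VE and 0.985 CPM (0.769 to 1.24) in Epi cells of BELAs. It was at 1.86 CPM (1.44 to 2.37) in VE cells of VE cysts and 2.74 CPM (2.26 to 3.30) in Epi cysts, where 1 cell held 22 UMIs. Among the Epi cells of VE cysts, 38 UMIs gave 8.82 CPM (6.25 to 12.1). Only 3.00% to 9.09% of cells were positive.

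**Figure D2:**
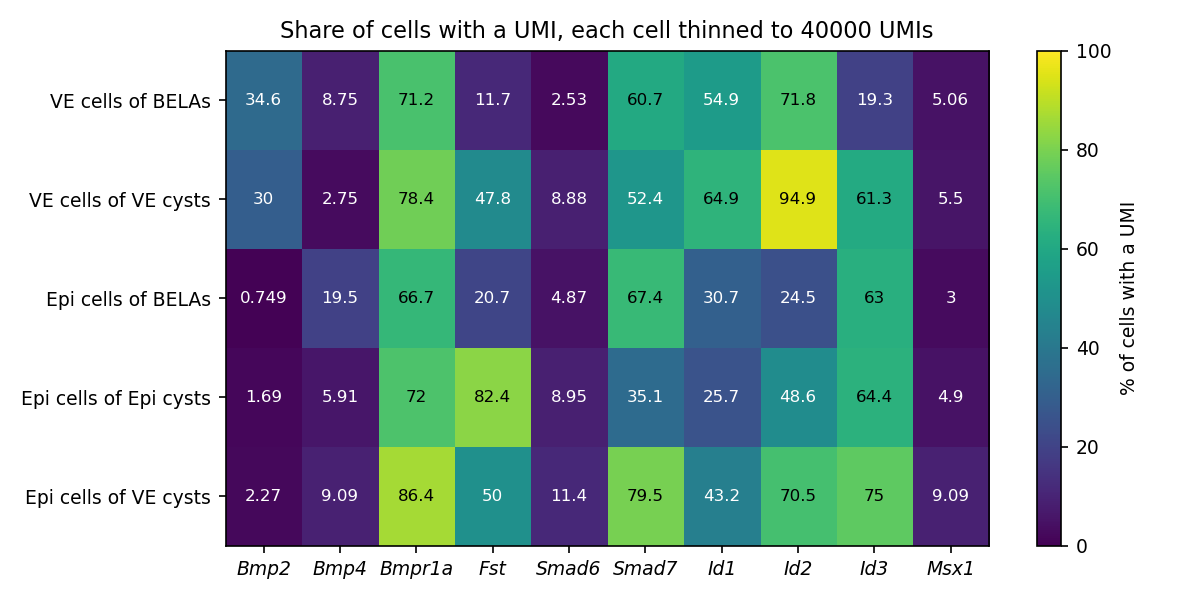
Percentage of cells with at least 1 UMI of each gene (columns) in the 5 groups (rows) after thinning every cell to 40000 UMIs; each cell of the grid prints its value. Id3 is detected in 19.3% of VE cells of BELAs and in over 60% of each other group, and Fst in 82.4% of Epi cells of Epi cysts but 20.7% of those of BELAs.

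VE cells of BELAs, which surround an Epi core, were compared with those of VE cysts. VE cysts also received FGF4, heparin and 16 h more of doxycycline, so the presence of Epi cells cannot be told apart from these. In VE cells of BELAs, 3 of the 10 genes were lower than in VE cysts and 0 were higher, where 2.92% of 9381 genes with a mean of at least 5 CPM were lower and 1.65% higher (4.57% either way). Id3 was lower by 4.82-fold (4.44 to 5.23), Fst by 4.08-fold and Id2 by 3.55-fold (3.41 to 3.70). Id1 was 1.82-fold (1.71 to 1.94) and Bmpr1a 1.48-fold (1.38 to 1.59) lower, within 2-fold. Bmp2 was 1.41 times (1.25 to 1.58) and Smad7 1.196 times (1.10 to 1.30) higher, also within 2-fold. Bmp4 was 3.03 times (2.09 to 4.502) higher on the plain ratio, but from 0.986 to 2.99 CPM, and did not pass 2-fold with 5 CPM added. Of the 10 genes, 7 passed the mean of 5 CPM. The 8 parietal endoderm genes summed to 9065 CPM in the VE of BELAs against 23171 CPM in VE cysts, and their part in these differences was not tested. TMM scaling shifts all ratios of this comparison up by 0.21 on the log2 scale, and all 3 genes stayed past 2-fold.

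In Epi cells of BELAs against Epi cysts, 2 genes were higher and 2 lower, where 1.14% of 9245 genes were higher and 1.29% lower (2.42% either way). Bmp4 was higher by 5.57-fold (4.32 to 7.28) and Smad7 by 2.86-fold. Without the cell with most Bmp4 (57 UMIs), the plain ratio was 5.08 (3.94 to 6.66) and the log2 ratio with 5 CPM added went from 1.08 to 0.998, just under 2-fold. Fst was lower by 16.8-fold and Id2 by 3.57-fold (3.27 to 3.89). Id1 was 1.22 times (1.10 to 1.34) the Epi cyst level and Id3 0.898 times (0.861 to 0.936). The 3 Id genes thus moved differently, with only Id2 past 2-fold. With 20 CPM added in place of 5, Fst alone stayed past 2-fold. The 8 primitive streak genes summed to 9.78 CPM in BELA Epi cells against 124 CPM in Epi cysts, and their part in the difference of Fst was not tested.

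Between VE and Epi cells of the same BELAs, Bmp2 and Id2 were higher and Id3 was lower in VE cells, where 14.1% of 9450 genes were higher and 8.85% lower. The count of 3 in 10 lies close to the 22.9% of all genes past 2-fold either way. Id1 was 1.93 times (1.80 to 2.07) higher in VE cells and Fst 1.47 times (1.32 to 1.63). Bmp4 was 3.01-fold (2.53 to 3.59) and Smad7 1.42-fold (1.33 to 1.51) lower. Of these 4, none passed 2-fold with 5 CPM added.

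The 48 Epi cells of VE cysts, from a library from which structures with a visible Epi core were left out by hand, had 4 of the 10 genes higher than Epi cells of BELAs and 0 lower, where 0.612% of 9154 genes were higher and 0.623% lower (1.23% either way). Id2 was 4.603 times (3.93 to 5.37), Fst 3.96 times (3.29 to 4.73), Id1 3.42 times (2.99 to 3.91) and Msx1 8.96 times (5.88 to 13.5) the BELA level. Msx1 passed on 38 UMIs and had a mean under 5 CPM. Its log2 ratio of 1.21 was 0.80 without the deepest 5% of cells, and it was 0.52 without 1 cell that held 23 of the UMIs, within 2-fold. Of the Id1 UMIs in these cells after thinning, 10% of cells held 66.7%, and 1 cell held 43. Bmp4 was 4.30-fold (2.25 to 9.45) lower on 9 UMIs. The sum of the 5 primed epiblast genes was 1026 CPM in these cells, against 1442 CPM (BELAs) and 906 CPM (Epi cysts).

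**Figure D3:**
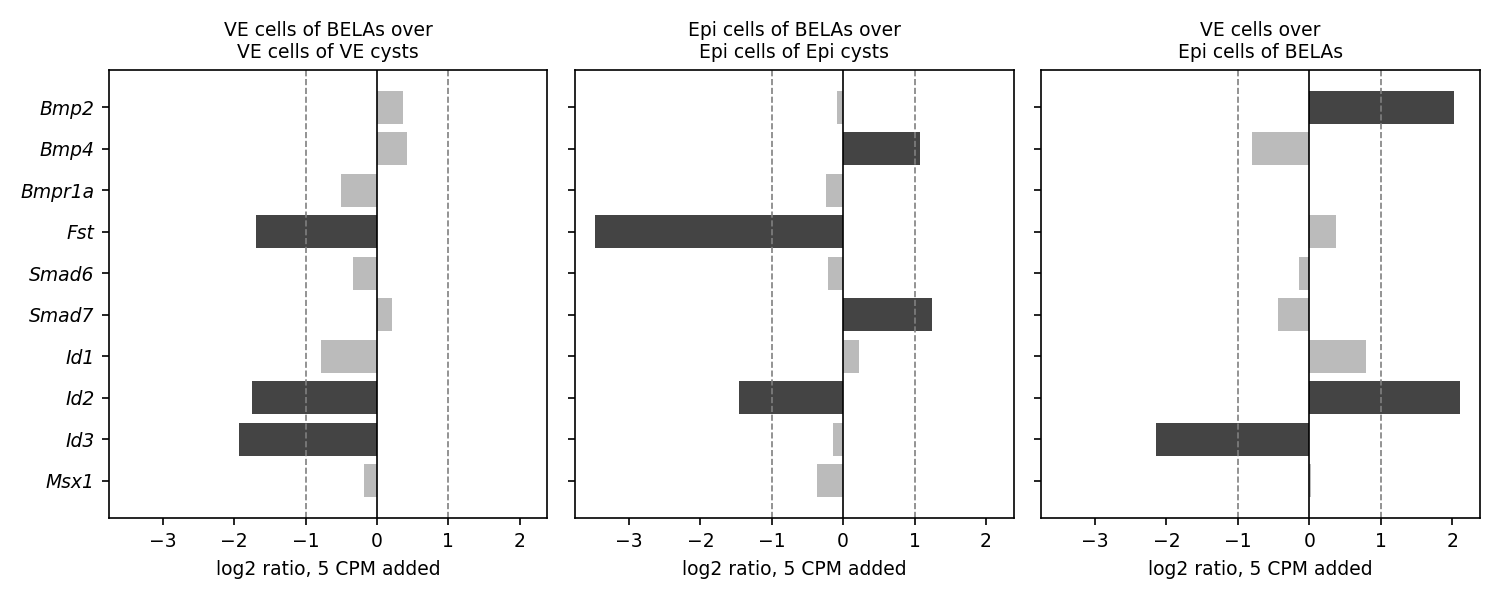
Log2 ratio of each gene (5 CPM added to both levels) in 3 comparisons, with dark bars for genes past 2-fold (dashed lines at 1 and -1) and light bars for the rest; each condition is 1 library, so no bar has a replicate error. Fst and Id2 are past 2-fold lower in BELAs than in the cysts of both lineages, Id3 is past 2-fold lower in VE cells but not in Epi cells, and Bmp4 and Smad7 are past 2-fold higher in Epi cells of BELAs.

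Within the VE layer of BELAs, the members were read against the summed UMIs of 7 AVE genes (Cer1, Lefty1, Lhx1, Otx2, Eomes, Gsc and Dkk1), in quintiles of 102 or 103 cells ordered by that sum. The top quintile had 9 to 95 UMIs of these genes, 53 cells lay within 2 UMIs of its lower limit, and it is a range of a score, not a cell type. From the lowest to the highest quintile Id3 was at 7.04, 4.61, 5.83, 7.04 and 50.5 CPM. Bmp2 was at 14.8, 13.6, 13.6, 10.2 and 43.4 CPM. Both genes varied little over 4 quintiles and were high in the top one. Id1 went from 25.5 CPM in the first to 53.2 CPM in the top quintile. Id2 first rose and then was lowest in the top quintile, at 54.4, 67.7, 79.9, 69.4 and 40.2 CPM. Fst was at 24.03, 10.4, 20.9, 5.10 and 5.88 CPM, so that quintile 4 was as low as the top one, where 1 cell held 23 of the 24 UMIs.

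The top quintile held 67.1% of the Id3 UMIs of these VE cells and 45.2% of those of Bmp2. Its level was 8.24 times (6.46 to 10.6) that of the lower 4 quintiles for Id3, 3.33 times (2.71 to 4.08) for Bmp2 and 1.93 times (1.64 to 2.28) for Id1. For Id2 it was 1.69-fold (1.43 to 2.00) lower. Bmpr1a, at a ratio of 1.12 (0.918 to 1.36), and Smad7, at 1.02 (0.829 to 1.25), did not differ beyond counting error. The joining of the lower 4 quintiles was chosen after the values were seen. Since Epi cells also express Otx2 and Lefty1, the sum was repeated without them, again chosen after seeing the data. The ratio was then 7.77 for Id3, 3.22 for Bmp2 and 1.95 for Id1, and 94 of the 102 cells were the same. Pou5f1 was at 18.6 CPM in the top quintile and 33.3 CPM in the others, Sox2 at 0.980 and 1.40 CPM, and Fgf4 at 0 and 0.789 CPM, but the lineage rule itself holds these markers low in VE cells. Of genes outside the rule, Utf1 was at 305 CPM in the top quintile and 206 CPM in the others. It was detected in 100% and 90.5% of these VE cells. Its level was not set against that in Epi cells, so it does not tell RNA of Epi cells from that of the VE cells themselves. Gdf3 was at 2.21 and 0.910 CPM, on 9 and 15 UMIs. It was the lowest in VE cells, at 5.98% of its Epi level, of the presumed Epi genes that did not separate the lineages as a list. The part of RNA from Epi cells in these values was not tested. Id3 stood at 7.73% of its level in Epi cells of BELAs in the lower 4 quintiles and at 63.7% in the top one. A single cell held 47 of the 206 Id3 UMIs of the top quintile, which was at 39.4 CPM without it.

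In VE cells of VE cysts, the sum of 8 parietal endoderm genes (Sparc, Col4a1, Col4a2, Lama1, Lamb1, Lamc1, Plat and Pth1r) gave the quintiles. Fst was at 8.16, 30.3, 62.9, 66.5 and 112 CPM from the lowest to the highest. Id2 was at 197, 181, 221, 232 and 276 CPM, and Id3 at 46.3, 58.4, 72.4, 75.3 and 76.3 CPM. Fst thus covered the widest range, and the Id genes a narrower one. Id1 lay between 57.1 and 71.0 CPM, Smad7 between 20.0 and 24.5 CPM and Bmp2 between 10.8 and 13.3 CPM without such an order.

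In Epi cells of Epi cysts, the sum of 8 primitive streak genes (T, Mixl1, Eomes, Fgf8, Wnt3, Wnt8a, Mesp1 and Evx1) gave the quintiles. Fst was at 78.4, 96.2, 165, 172 and 232 CPM, and it was thus high also in the 119 cells of the first quintile, which had no UMI of these genes. Msx1 was at 0 CPM in the first quintile, which allows up to 0.775 CPM, and at 5.72 CPM in the top one, where 1 cell held 22 of the 27 UMIs. Without that cell the top quintile was at 1.07 CPM, below quintiles 3 and 4 at 3.60 and 5.08 CPM. Smad7 was at 21.8 CPM (17.8 to 26.4) in the top quintile and between 10.5 and 13.2 CPM below it. Id2 peaked in quintile 4, at 60.8 CPM, and was at 27.1 CPM in the top one.

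In Epi cells of BELAs, the sum of 5 primed epiblast genes (Fgf5, Otx2, Pou3f1, Dnmt3b and Sox3) gave the quintiles. Bmp4 was at 17.7 CPM (14.6 to 21.3) in the lowest quintile and between 4.69 and 9.06 CPM in the others. Of the 6 cells with at least 5 Bmp4 UMIs, 5 lay in the lowest quintile, which was at 8.33 CPM without them, and positive cells were no more frequent there (35 of 161) than in the highest quintile (35 of 160). From the lowest to the highest quintile Id2 was at 19.1, 12.7, 9.38, 10.2 and 7.97 CPM. Id3 was at 57.8, 81.1, 75.2, 83.8 and 104 CPM. The 2 Id genes thus differed in opposite directions between the end quintiles. Over single cells r with the sum was -0.064 for Id2 and 0.225 for Id3, so Id2 followed the sum little. Smad7 lay between 36.8 and 39.5 CPM in all 5 quintiles.

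**Figure D4:**
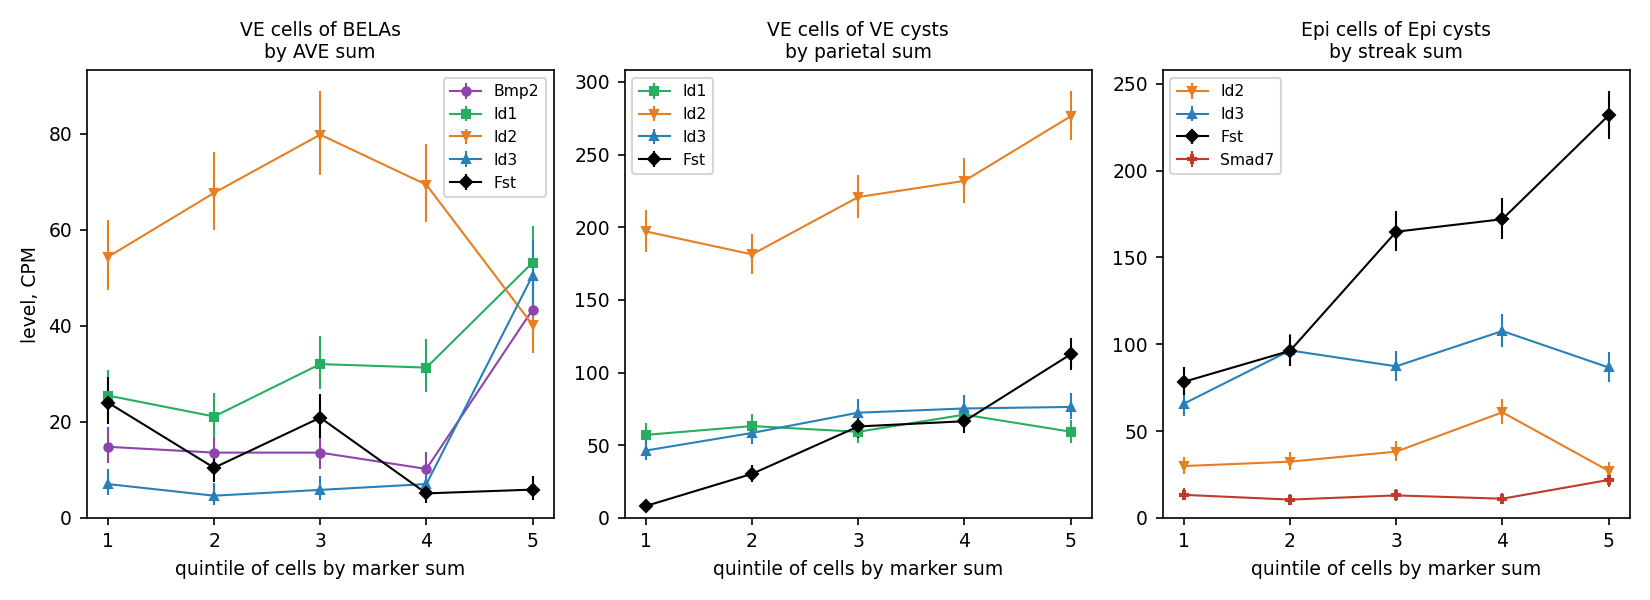
Level (CPM) of selected genes in quintiles of the thinned cells ordered by a marker sum: 7 AVE genes in VE cells of BELAs, 8 parietal genes in VE cells of VE cysts and 8 streak genes in Epi cells of Epi cysts; bars are exact 95% Poisson intervals. In the first panel Id3 and Bmp2 are raised in the top quintile alone (50.5 and 43.4 CPM) while Id2 falls to 40.2 CPM, and Fst increases over both other sums.

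Across single cells the r of Id genes was highest in VE cysts, where the levels of all 3 were also highest in each lineage. Low counts hold r down, and the mean of Id3 per thinned VE cell was 2.63 UMIs in VE cysts and 0.597 in BELAs. Pearson's r of log2 values over the thinned cells, a description over cells of 1 library and equal depth, was 0.585 for Id1 and Id3, 0.507 for Id2 and Id3 and 0.412 for Id1 and Id2 in 473 VE cells of VE cysts. In 514 VE cells of BELAs it was 0.344, -0.0081 and 0.088 for the same pairs. Over all of these cells Id2 thus went little with the other Id genes. In the top quintile of the AVE sum Id1 and Id3 had r = 0.558, and in the lower 4 quintiles 0.142. Bmp2 and Id1 had r = 0.424 in the top quintile and 0.121 below it. Id2 had r = 0.048 with Id1 and -0.016 with Id3 in the top quintile. In the lower 4 quintiles Id2 had 0.145 with Id1 and 0.096 with Id3, so that Id1 went with Id2 there about as much as with Id3. Both subsets were chosen after seeing the data.

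In 801 Epi cells of BELAs the pairs of Id genes had r = 0.259 (Id1 and Id3), 0.132 (Id2 and Id3) and 0.306 (Id1 and Id2). In 592 Epi cells of Epi cysts they had 0.276, 0.249 and 0.250, and in the 44 Epi cells of VE cysts 0.637, 0.523 and 0.466. All 3 Id genes were detected together in 47.8% of VE cells of VE cysts and 10.5% of VE cells of BELAs. They were found together in 7.37% of Epi cells of BELAs, 12.2% of those of Epi cysts and 34.1% of those of VE cysts. Depth was equal, but r and co-detection also follow the level of each gene. The inhibitory genes went weakly with the Id genes in VE cells of VE cysts, with r of 0.180 to 0.229 for Smad6 with Id1 and Id3 and for Smad7 with all 3 Id genes, and weak correlations in sparse counts are given as values only.

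**Figure D5:**
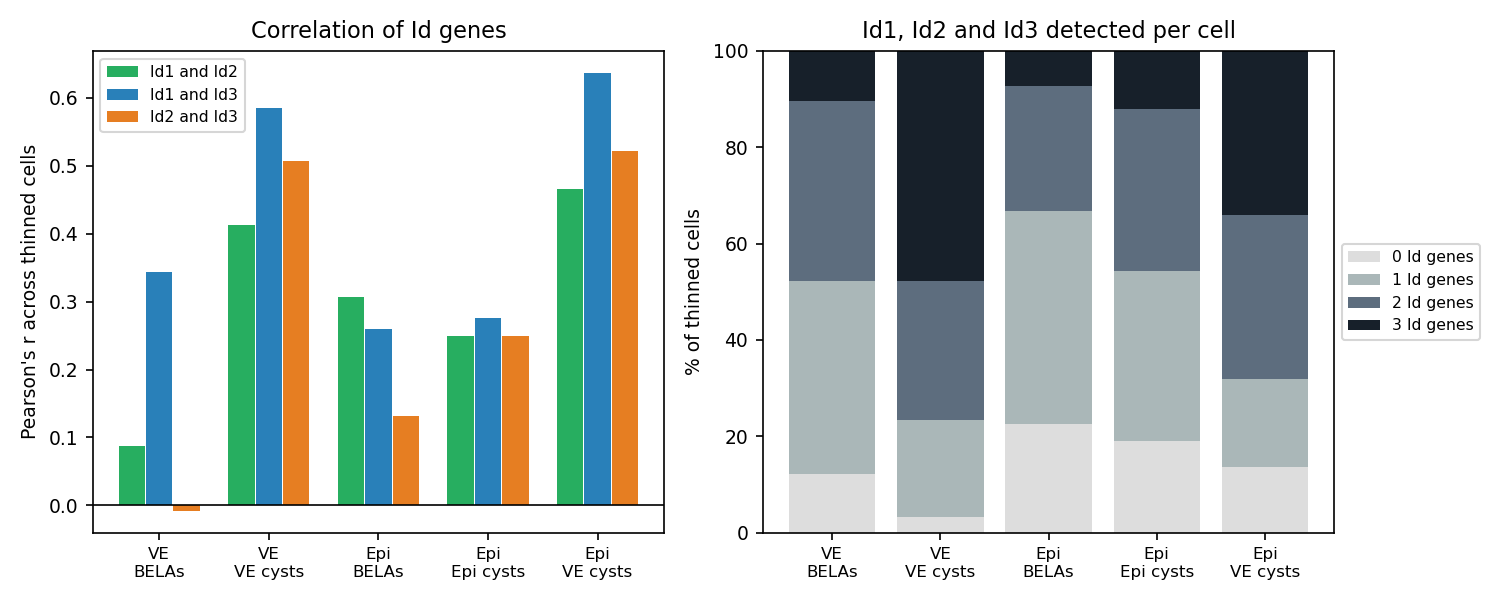
Left, Pearson's r of each pair of Id genes across thinned cells of the 5 groups (44 cells in Epi of VE cysts, 473 to 801 in the others); right, percentage of thinned cells in which 0, 1, 2 or 3 of the Id genes were detected. VE cells of VE cysts have r of 0.412 to 0.585 and 47.8% of cells with all 3 genes, against 10.5% in VE cells of BELAs.

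The genes most like each member were taken as the 3 of highest r among all genes detected in at least 10% of cells, in the group where the member was highest. For Id1 in VE cells of VE cysts these were Id3, Id2 and Morc4 (0.585, 0.412 and 0.284), and for Id2 they were Id3, Id1 and Slc16a1 (0.507, 0.412 and 0.381), out of 10565 genes compared. The nearest genes of Id1 among all those compared were thus the other Id genes. For Bmp2 in VE cells of BELAs they were Pkdcc, Fzd5 and Tspan7 (0.411, 0.384 and 0.361). For Fst in Epi cysts they were Nkx1-2, Il17rd and T (0.416, 0.373 and 0.348), of which T is a streak gene. Bmpr1a, Id3 and Smad7 were highest in the 44 Epi cells of VE cysts, where the leading genes were A930005H10Rik (0.503), Tpm4 (0.677) and Abcc1 (0.623) on few cells.

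For other groups the nearest genes were looked up after seeing the data. For Id3 in VE cells of BELAs they were Mest, Tspan7 and Otx2 (0.559, 0.516 and 0.507), of which Otx2 is in the AVE sum. Tspan7 was thus shared by Id3 and Bmp2 in these cells. For Smad7 in Epi cysts they were Nodal, Lefty1 and Tdgf1 (0.378, 0.351 and 0.334), the genes of a ligand, an inhibitor and a co-receptor of the Nodal pathway. For Id2 in VE cells of BELAs the first was Ihh (0.288). In Epi cysts, Id2 and Id3 shared Ptn (0.369 and 0.365) and Greb1l (0.356 and 0.358). With genes in at least 3% of cells, those nearest to Bmp4 in Epi cells of BELAs were Esrrb, Mylpf and Tbx3 (0.306, 0.304 and 0.302). In the 6 cells with at least 5 Bmp4 UMIs, Esrrb was at 62.5 CPM and Tbx3 at 121 CPM. In cells with no Bmp4 UMI they were at 1.09 and 1.67 CPM, and r was not taken without the 6 cells. Nearest to Msx1 in Epi cysts was Cdx2 (0.394).

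A wider list of 52 BMP pathway genes besides the 10 was read in the same way, and 17 to 22 of them had a mean of at least 5 CPM. Adding 5 CPM keeps most of the others within 2-fold. Over all genes with at least 1 UMI, 2.09% were past 2-fold either way between the VE groups. The share was 1.14% between Epi cells of BELAs and Epi cysts. In VE cells of BELAs against VE cysts 0 were higher and 2 lower, Twsg1, an extracellular BMP modulator, at 12.7 against 31.9 CPM, and Pcsk6, a proprotein convertase, at 3.999 against 14.6 CPM. Neither was past 2-fold with TMM scaling. The list's median log2 ratio was -0.02, beside -0.12 for all genes tested. For Epi cells of BELAs against Epi cysts, Hand1, which encodes a basic helix-loop-helix factor, was higher (6.19 against 0.0245 CPM) and the co-receptor gene Rgma lower (4.27 against 22.7 CPM), with a list median of 0.00 beside -0.04. A single cell held 114 of the 446 Hand1 UMIs of Epi cells of BELAs, and without it Hand1 was at 4.61 CPM and within 2-fold in all 3 comparisons that use these cells.

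Between VE and Epi cells of BELAs 4 genes of the list were higher and 3 lower, with a median of 0.00 beside -0.05. Of 22343 genes with at least 1 UMI, 6.24% were higher and 4.05% lower, so the counts are not read as particular to the list. The ligand gene Bmp6 was at 9.67 against 0.430 CPM, so that it stood with Bmp2 in the VE. The type I receptor gene Acvr1 was at 13.5 against 4.22 CPM, and the target genes Msx2 and Tbx3 were at 7.32 against 0.277 CPM and 47.4 against 2.94 CPM. Lower in VE cells were the type II receptor gene Acvr2b (15.4 against 54.4 CPM), the SMAD co-repressor gene Skil (31.2 against 105 CPM) and Hand1 (0.147 against 6.19 CPM). In Epi cells of VE cysts against BELAs only Hand1 was past 2-fold, with no UMI in VE cysts, which allows up to 0.697 CPM. The share of 21314 genes with at least 1 UMI was 0.577% there. The signal transducers Smad1, Smad4 and Smad5 were within 2-fold in all 4 comparisons.

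Markers of other cell types were checked as lists. Of 7 fibroblast genes, Thy1 was highest at 19.3 CPM in Epi cells of BELAs, and of 7 blood and endothelial genes, Cdh5 at 7.30 CPM in VE cells of VE cysts, with hemoglobin gene Hbb-bt at 0 in every group. Among 10 trophoblast and extraembryonic ectoderm genes, Krt8 stood at 366 and 371 CPM in VE cells and at 17.4 to 36.2 CPM in Epi cells, while Tpbpa was at 0 in all groups. In the 6 cells with most Bmp4, Hand1 of the same list was at 283 CPM, as given above. Elf5, another gene of the list, had no UMI in them, which allows up to 15.4 CPM. It had none in the other thinned Epi cells of BELAs either, so it does not tell the 6 cells apart. Among 10 mesoderm genes Pdgfra led in VE cells at 73.4 and 179.8 CPM. In Epi cells T led in Epi cysts at 19.6 CPM, and Lefty2 led in BELAs and VE cysts at 7.18 and 24.8 CPM. The paper labels most embryonic cells of Epi cysts as mesoderm, which the lineage rule used here does not separate from Epi. Among 8 neural genes Nes led in Epi cells at 37.0 to 44.6 CPM. The sum of 10 genes of G2 and M phase was 1311 to 2333 CPM, and its r with each Id gene was between -0.136 and 0.093 in the 4 larger groups.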

How the data were processed

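The deposited files hold raw UMI counts per gene and barcode for 3 single-cell libraries, which the authors made with Cell Ranger 4.0.0 on mm10. The members and all gene lists were chosen with earlier results of these data known. Cells with 4000 genes or more and 10% mitochondrial UMIs or fewer were kept, and no doublet caller was run. Cells were assigned to a lineage by 4 VE and 4 Epi markers, and counts were summed per library and lineage. Depth per group was 4306331 to 72108590 UMIs. Cells are not replicates and each condition is 1 library, so levels carry exact 95% Poisson intervals, shares exact Clopper-Pearson intervals, and there is no test. Ratios past 2-fold had 5 CPM added, and the background is genes with a mean of at least 5 CPM. Cells thinned to 40000 UMIs (seed 11) gave shares, quintiles and correlations, with 25 CPM added before log2. Named were all 10 members, pathway genes past 2-fold and the 3 genes of highest r. Alternatives were a looser filter, clear lineage, thinning, 1 or 20 CPM, per-cell means, removal of deep cells and TMM (edgeR 4.0.16). Python 3.11.15 and scipy 1.17.1 were used, and scripts were tested on simulated data. Gene starts came from RefSeq and untranslated regions from GENCODE, both on GRCm38. Promoters of Bmp2, Id1, Fst and Smad7 were not used here.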

Additional observations from a re-analysis of the deposited data

Results flagged for a closer look

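For 2 of the 10 genes BELAs lay on opposite sides of the cysts in the 2 lineages, with both counting intervals away from 1. Id1 in BELAs was 0.548 times (0.516 to 0.583) the VE cyst level in VE cells and 1.22 times (1.10 to 1.34) the Epi cyst level in Epi cells. Bmp2 was 1.41 times (1.25 to 1.58) the VE cyst level in VE cells and 0.549 times (0.324 to 0.929) the Epi cyst level in Epi cells, there on 31 and 32 UMIs. The Epi level of Bmp2 in BELAs is not read as expression, and without 1 Epi cyst cell that held 14 of the 32 UMIs the Epi ratio was 0.975 (0.529 to 1.85), no longer away from 1. With 1 library per condition the difference between the lineages was not tested.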

How the results depend on the processing

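None of the calls past 2-fold among the 10 genes changed sign under any of the 8 alternatives. Without the single cell with most UMIs, chosen after seeing the data, Bmp4 in Epi cells of BELAs against Epi cysts and Msx1 in Epi cells of VE cysts against BELAs came within 2-fold, and Bmp4 in the latter comparison passed it (-1.07). With 20 CPM added, 1 gene (Fst) in place of 4 was past 2-fold in Epi cells of BELAs against Epi cysts, and 2 (Id1 and Id2) in place of 4 in Epi cells of VE cysts against BELAs. Between VE and Epi cells of BELAs it was 2 in place of 3, with Bmp2 at a log2 ratio of 0.86. With 1 CPM added Bmp4 was past 2-fold as well between the VE groups (1.01), between VE and Epi cells of BELAs (-1.32) and between Epi cells of VE cysts and BELAs (-1.69). In the last comparison Bmp4 was also past 2-fold in clear lineages (-1.17) and with TMM scaling (-1.001), Id3 with per-cell means (1.28), and Msx1 was not without the deepest cells (0.80). Of the 52 pathway genes, 6 in place of 2 were past 2-fold between the VE groups with 1 CPM added, 0 with 20 CPM and 0 with TMM scaling. Between Epi cells of BELAs and Epi cysts the count was 0 in place of 2 with 20 CPM. Between VE and Epi cells of BELAs it was 12 and 3 in place of 7 with 1 and 20 CPM, and between Epi cells of VE cysts and BELAs 3 and 0 in place of 1. The added CPM sets how genes of low level count, by construction. Other single values that came to lie outside their counting interval were 67 of 320 log2 ratios and 75 of 100 shares, the latter with thinning to another depth or none. Bmpr1a between VE and Epi cells of BELAs, at a ratio of 1.00, changed sign under 2 alternatives. TMM scaling shifts the ratios of VE over Epi cells of BELAs by 0.18 on the log2 scale. No paired analysis was possible because each condition has 1 library and the comparisons involve no replicate numbers. Leaving out a replicate was not possible for the same reason. A level of 3 UMIs, the limit that a count of 0 allows, is 0.0416 to 0.697 CPM among the 5 groups, so that values in the 48 Epi cells of VE cysts are the least precise.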
